A study of Mus musculus with 18 samples.

Results

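Genes for subunits of the SWI/SNF chromatin remodeler, 10 of the 21761 genes in a table of mRNA-seq values, were followed through B cell differentiation in mice with and without de novo DNA methyltransferases. They were taken by symbol: the ATPases Smarca4 and Smarca2, the core subunits Smarcb1, Smarcc1, Smarcc2, Smarcd1, Smarcd2 and Smarce1, and the ARID subunits Arid1a and Arid1b. Smarca4 was chosen on its lower values in Dnmt3-deficient plasma cells, so its values in plasma cells are given as a description with no test, and the other 9 were added as partners of the same complex. All 10 exceeded 1 FPKM in at least 2 libraries and entered the tests. FPKM values count the fragments on a gene's exons, scaled by exon length and by the depth of the library, so levels of different genes can be compared within a library.

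SWI/SNF complexes use the energy of ATP to slide or evict nucleosomes and so open enhancers and promoters to transcription factors. Each complex holds a single ATPase, either Smarca4 (BRG1) or Smarca2 (BRM). In the canonical BAF form it sits on a scaffold of Smarcc subunits with Smarcb1, a Smarcd subunit and Smarce1, and Arid1a or Arid1b marks that form. Smarca4 is known to be needed for B cell development, and several pairs of subunits are paralogs that replace each other in the complex.

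There were 6 groups of 3 libraries, formed by 3 cell types and 2 genotypes. Naive B cells (nB) were B220+ Fas- GL7- lymph node cells of unimmunized mice. Other mice were immunized with phycoerythrin in complete Freund's adjuvant and sampled 30 days later. From these mice, B220+ Fas+ GL7+ cells that bound phycoerythrin were taken as germinal center B cells (GCB). CD138+ marrow cells of immunized mice were taken as bone marrow plasma cells (BMPC), also at 30 days. Dnmt3-deficient mice were Dnmt3afl/fl Dnmt3bfl/fl with a Cre allele, and Dnmt3-sufficient littermates had the same floxed alleles and no Cre allele, so both genotypes carried loxP sites. The labels give the strain as B6;129S4-Dnmt3atm3.1Enl Dnmt3btm5.1Enl/Mmnc, and mice were 8 to 12 weeks old, of both sexes. The Cre acts in B cells from an early stage, before the naive B cell. Each library came from 5000 sorted cells, and each GCB sample pooled 2 mice.

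Libraries of nB held 6692516 to 8987922 reads on the genes of the table and those of GCB 7644544 to 8903872. Libraries of BMPC had fewer, 1355231 to 3803197, so that 1 read weighs more. In BMPC 2991 to 4615 of the 11522 tested genes had no read, against 680 to 1252 in nB and GCB. The floxed genes did not check the labels: Dnmt3a in nB was at 3.67 ± 1.42 FPKM (SD, n = 3) with the enzymes and 3.48 ± 1.10 without, but these values are over all exons and do not isolate the deleted ones. Markers followed the sorted types. The GCB markers S1pr2 and Rgs13 were at 80 to 138 and 231 to 336 FPKM in GCB, at 0 to 5.77 and 0 to 8.59 in nB and at 0 in BMPC, while Bcl6 overlapped between GCB and nB. The summed level of 7 plasma cell markers was 18900 to 51500 FPKM in BMPC against 312 to 1520 in nB and GCB, most of it Jchain, and Xbp1, Tnfrsf17, Mzb1, Sdc1 and Prdm1 were also higher in every BMPC library, Prdm1 narrowly (0.838 against at most 0.783). Irf4 was the exception, since it was at 0.315 to 27.9 in Dnmt3-deficient BMPC and at 17.2 to 31.0 in nB. BMPC libraries also held RNA of other marrow cells, given beside the BMPC results. Erythroid RNA was not confined to BMPC. The 5 erythroid genes in the table, of 8 listed, summed to 0.705 to 1.42 FPKM in Dnmt3-sufficient nB and to 26.5 to 290 in Dnmt3-deficient nB. In GCB these sums were 0.352 to 14.1 and 14.2 to 48.2 FPKM, Dnmt3-sufficient first. A lower value in these bulk libraries cannot be told apart as less RNA per cell or fewer cells of a type.

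The promoters of the 2 ATPase genes are shown because the deleted enzymes methylate cytosine in CG dinucleotides. They are from RefSeq on build GRCm38, the 250 bases before the start, on the gene's strand, 5′ to 3′, with CG in capitals. Smarca4 is at chr9:21615919-21616168, plus strand, and Smarca2 at chr19:26604910-26605159, plus strand.
Smarca4: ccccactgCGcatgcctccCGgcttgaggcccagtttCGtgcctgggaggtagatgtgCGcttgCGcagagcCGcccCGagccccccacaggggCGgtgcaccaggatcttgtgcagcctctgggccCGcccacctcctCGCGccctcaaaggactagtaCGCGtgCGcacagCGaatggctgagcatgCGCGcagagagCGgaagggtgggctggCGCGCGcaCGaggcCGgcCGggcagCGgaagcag
Smarca2: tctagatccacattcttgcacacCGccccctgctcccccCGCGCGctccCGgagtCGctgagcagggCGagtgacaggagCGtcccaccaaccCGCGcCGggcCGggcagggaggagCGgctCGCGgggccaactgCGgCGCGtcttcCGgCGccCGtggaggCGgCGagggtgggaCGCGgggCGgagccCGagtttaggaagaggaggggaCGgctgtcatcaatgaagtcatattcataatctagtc
The Smarca4 window held 25 CG and the Smarca2 window 28, against a median of 6 over 32851 promoter windows of the same length. Both genes therefore start in CG-rich sequence. Of the 10 members, 9 had an entry (Arid1a had 2, and Smarce1 had none), and their windows held 4 CG in Smarcd2 and 18 to 40 in the others. The letters CAGCTG, which E2A factors bind, were in none of these windows on either strand, against 13% of all windows. The ETS letters GGAAGT were in that of Smarcc2 alone, against 19.7% of all windows. No methylation was measured in these libraries.

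In Dnmt3-sufficient naive B cells both ATPases were present, with Smarca4 above Smarca2 in level. Smarca4 (Entrez 20586; 21420613 to 21508674 of chromosome 9 on mm9, the build of the files) stood at 19.5, 19.5 and 14.7 FPKM in Dnmt3-sufficient nB. Smarca2 (Entrez 67155; 26679650 to 26852811 of chromosome 19) stood at 13.1, 8.99 and 10.1 FPKM in those libraries, so the ranges did not overlap. Smarcb1, the small core subunit known as a tumor suppressor, was the most abundant member in nB, at 125 ± 33.2 FPKM (SD, n = 3). Smarce1, a subunit with an HMG domain, followed at 59.8 ± 6.55 and Arid1a, the DNA-binding subunit of BAF, at 52.0 ± 9.47, and the ranges of this pair overlapped. The other 7 lay between 7.63 FPKM for Smarcc1 and 18.3 for Smarcc2, and each overlapped its neighbor in that order. In Dnmt3-sufficient GCB the order was Smarcb1 (214 ± 15.5), Smarce1 (82.7 ± 1.73) and Smarca4 (45.9 ± 4.87), each apart from the next, with Smarca2 last at 2.62 ± 0.422. In nB only Smarcd2 lay between the ATPases in this order, and in GCB 6 other members did.

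**Figure D1:**
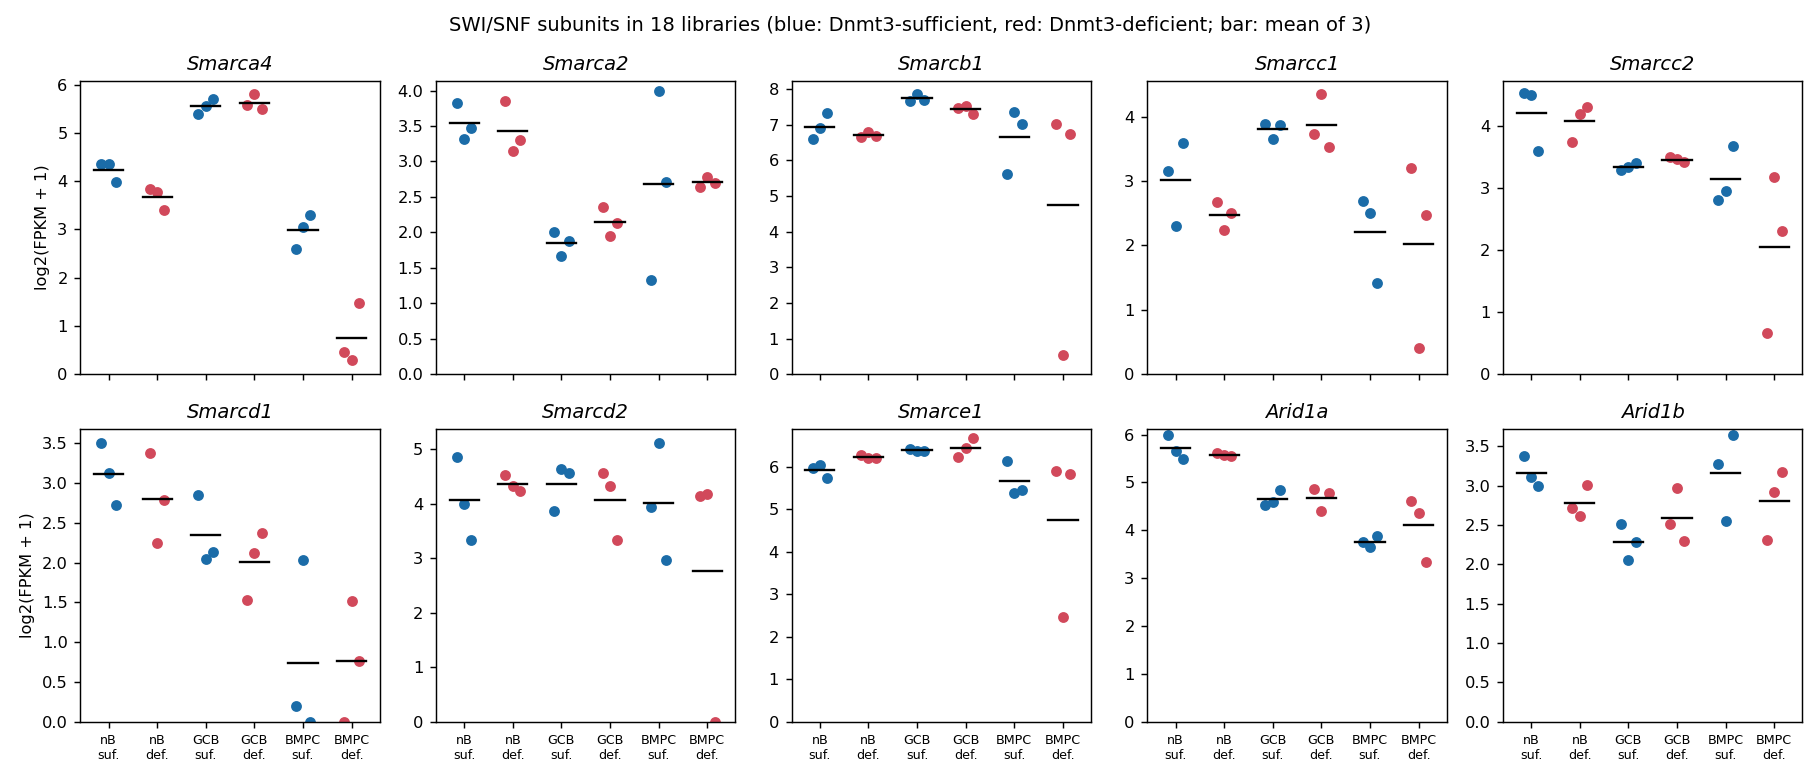
Values of the 10 SWI/SNF subunit genes, as log2(FPKM + 1) on the vertical axis, in 6 groups of 3 libraries (suf., Dnmt3-sufficient, blue; def., Dnmt3-deficient, red); each point is a library and each bar the mean of 3. The 6 GCB libraries lie above all nB libraries for Smarca4 and below them for Smarca2, and the points of BMPC are the most scattered.

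From naive to germinal center B cells the ATPases moved in opposite directions, Smarca4 up and Smarca2 down, in both genotypes. The comparison asks how the remodeler's gene expression changes as B cells enter the germinal center, a stage of rapid division and mutation of antibody genes. GCB also differed from nB in immunization, binding of phycoerythrin and pooling of mice. The parts of these in the changes cannot be told apart from that of the cell type. Values were tested with limma on log2(FPKM + 1), and a gene passed at a Benjamini-Hochberg adjusted p of 0.05 or less over 11522 genes and a change of at least 1. The scale understates the change of low genes. The nB to GCB comparisons of the 2 genotypes share no library, although they share the estimate of the spread.

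Smarca4 was at 41.1, 46.0 and 50.8 FPKM in Dnmt3-sufficient GCB, and at 46.9, 54.7 and 44.2 in Dnmt3-deficient GCB. In Dnmt3-deficient nB it was at 13.2, 12.7 and 9.64 FPKM. Every GCB library was above every nB library. Smarca4 rose by 1.32 ± 0.25 (SE) on the log2(FPKM + 1) scale in Dnmt3-sufficient mice, a 2.56-fold ratio of mean FPKM (adjusted p = 0.00035). In Dnmt3-deficient mice it rose by 1.96 ± 0.25, a 4.12-fold ratio (adjusted p = 5.5e-06). The difference between these 2 rises, 0.64 ± 0.35, did not pass (adjusted p = 0.95).

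Smarca2 was at 3.02, 2.18 and 2.67 FPKM in Dnmt3-sufficient GCB, and at 4.15, 2.85 and 3.40 in Dnmt3-deficient GCB. Its Dnmt3-deficient nB libraries were at 13.5, 7.88 and 8.84. The ranges of nB and GCB did not overlap in either genotype. Smarca2 fell by 1.68 on the log2(FPKM + 1) scale in Dnmt3-sufficient mice (SE 0.31, adjusted p = 0.00035) and by 1.29 in Dnmt3-deficient mice (SE 0.31, adjusted p = 0.0038). Without weights for the spread of each cell type, the fall in Dnmt3-deficient mice did not pass (adjusted p = 0.14).

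Of the 10 members, 1 passed as higher and 2 as lower in Dnmt3-sufficient mice, where 12.1% and 16.6% of all tested genes did. In Dnmt3-deficient mice 2 passed as higher and 1 as lower, where 10.7% and 14.7% of all genes did. These shares are near those of all genes, so the number of members that changed does not set the complex apart. The median change over the members was -0.24 in each genotype, beside -0.11 and -0.13 over all tested genes, and relative to those medians Smarca4 rose by 1.43 and 2.09. The ranges of nB and GCB did not overlap for 8 members in Dnmt3-sufficient and 6 in Dnmt3-deficient mice, against 45.6% and 45.3% of all genes. The sign of the change was the same in both genotypes for 9 of 10 members and for 80.6% of all genes. Smarcd2 was the exception, at 0.30 and -0.29.

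**Figure D2:**
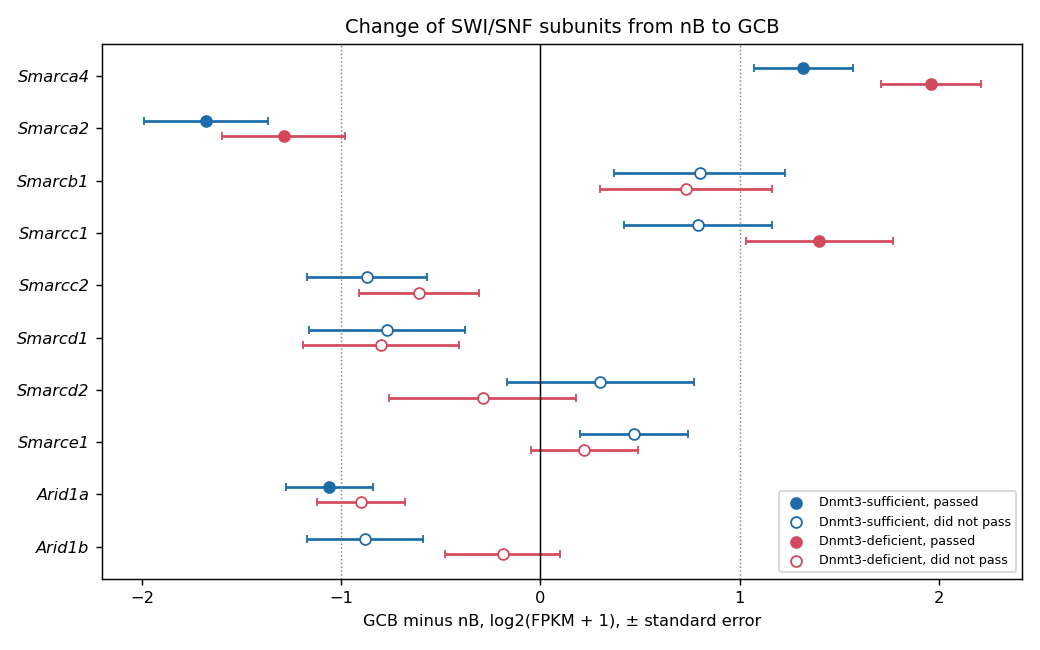
Change from nB to GCB on the log2(FPKM + 1) scale (horizontal axis, GCB minus nB, with its standard error) for each subunit in Dnmt3-sufficient (blue) and Dnmt3-deficient (red) mice; filled points passed the test, and dotted lines mark changes of 1 in either direction. Smarca4 lies to the right and Smarca2 to the left of the dotted lines in both genotypes, and Smarcd2 lies on both sides of 0.

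Among the scaffold subunits, Smarcc1 (BAF155) was at 7.92, 3.91 and 11.1 FPKM in Dnmt3-sufficient and 5.41, 3.70 and 4.66 in Dnmt3-deficient nB. It was at 13.8, 11.6 and 13.7 FPKM in Dnmt3-sufficient and 12.3, 19.5 and 10.5 in Dnmt3-deficient GCB, above nB in both genotypes. It rose by 1.4 ± 0.37 in Dnmt3-deficient mice (adjusted p = 0.0064, and 0.17 without weights), and its change of 0.79 ± 0.37 in Dnmt3-sufficient mice did not pass (adjusted p = 0.10). The difference between the 2 changes, 0.61 ± 0.52, did not pass either (adjusted p = 1). Its paralog Smarcc2 (BAF170) was at 22.1, 21.7 and 11.1 FPKM in Dnmt3-sufficient nB, and GCB of that genotype had 8.81, 9.11 and 9.52. The Dnmt3-deficient libraries were at 12.3, 17.3 and 18.7 in nB and 10.3, 10 and 9.67 in GCB, again with no overlap. The Smarcc2 changes of -0.87 ± 0.30 (adjusted p = 0.033) and -0.61 ± 0.30 (adjusted p = 0.14) were under the minimum size of 1. The former passed at -1.18 without Dnmt3-sufficient nB replicate 3.

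Smarcb1 was at 95.8, 119 and 161 FPKM in Dnmt3-sufficient nB, and GCB of that genotype had 202, 232 and 208. Its changes of 0.80 ± 0.43 and 0.73 ± 0.43 did not pass in the 2 genotypes (adjusted p = 0.17 and 0.22), although GCB lay above nB without overlap in both. The differences of Smarce1 were 0.47 ± 0.27 and 0.22 ± 0.27, and neither passed (adjusted p = 0.20 and 0.57). Of the Smarcd paralogs, which link the complex to transcription factors, Smarcd1 had differences of -0.77 ± 0.39 and -0.80 ± 0.39 that did not pass (adjusted p = 0.13 in each). Smarcd2 ranged from 9.04 to 28.2 FPKM within Dnmt3-sufficient nB alone, and its changes did not pass (adjusted p = 0.67 and 0.69).

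Arid1a was at 62.6, 49.3 and 44.2 FPKM in Dnmt3-sufficient nB, and GCB of that genotype had 22.2, 23.1 and 27.5. Its Dnmt3-deficient nB libraries were at 48.1, 46.6 and 45.6, and the GCB libraries at 28.1, 20.1 and 26.3. All GCB libraries were below all nB libraries, at 0.467 and 0.530 of the nB mean. Arid1a fell by 1.06 in Dnmt3-sufficient mice (SE 0.22, adjusted p = 0.001), a call that was lost without weights (adjusted p = 0.052). Its change of -0.90 ± 0.22 in Dnmt3-deficient mice had an adjusted p of 0.0042 but was under the minimum size. In Dnmt3-sufficient mice the change was -0.92 without nB replicate 1, which also ended the call. Arid1b, the alternative ARID subunit, was lower per length than Arid1a in all 12 libraries of nB and GCB, at 3.15 to 9.40 FPKM, and its differences of -0.88 ± 0.29 (adjusted p = 0.026) and -0.19 ± 0.29 (adjusted p = 0.67) were under the minimum size. The former passed at -1.02 with a pseudocount of 0.1 (adjusted p = 0.021) and with voom on the recovered reads (adjusted p = 0.0052).

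Cell division genes moved with the same comparison. The 8 cell cycle genes of the list, among them Mki67 and Cdk1, all passed as higher in GCB in both genotypes, and their summed level was 139 to 168 FPKM in nB and 2190 to 2430 in GCB. Their part in the changes of the subunits was not tested.

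The share of each paralog within its pair gives the make-up of the pool of subunit mRNA in a library without regard to the library's scaling. Smarca4 made up 58.5% ± 6.82 (SD, n = 6) of the summed FPKM of Smarca4 and Smarca2 in nB and 93.9% ± 1.47 in GCB. The nB libraries ranged from 49.5% to 68.4% and the GCB libraries from 91.9% to 95.5%. The difference of 35.4 percentage points had an exact two-sided permutation p of 0.0022, the smallest that 6 against 6 libraries allow, and 0.0072 after adjustment over the 10 comparisons of shares. Within Dnmt3-sufficient mice it was 32.0 points and within Dnmt3-deficient mice 38.8, where 3 against 3 libraries allow no p below 0.1. Summed ATPase mRNA was 25.2 ± 5.19 FPKM (SD, n = 6) in nB and 50.3 ± 4.76 in GCB.

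The make-up of the scaffold pair differed as well. Smarcc1 made up 26.6% ± 12.7 (SD, n = 6) of the summed FPKM of Smarcc1 and Smarcc2 in nB and 58.1% ± 5.04 in GCB, a difference of 31.4 points (exact permutation p = 0.0022, adjusted 0.0072). The highest nB library was at 49.8% and the lowest GCB library at 52.0%, so the groups did not overlap but came close. The summed level of this pair was 23.3 ± 4.22 FPKM in nB and 23.1 ± 3.34 in GCB. The mean summed FPKM of the scaffold pair was thus alike in both cell types while its make-up differed. FPKM is relative to each library, and RNA per cell was not measured. The Smarcd1 share was 28.4% ± 7.60 in nB and 18.3% ± 10.4 in GCB (exact permutation p = 0.095, adjusted 0.19). The Arid1a share was 87.7% ± 1.67 in nB and 84.3% ± 5.13 in GCB, and did not pass (exact permutation p = 0.13, adjusted 0.22). Summed ARID1 mRNA was 56.4 ± 7.91 FPKM in nB and 29.1 ± 2.74 in GCB.

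**Figure D3:**
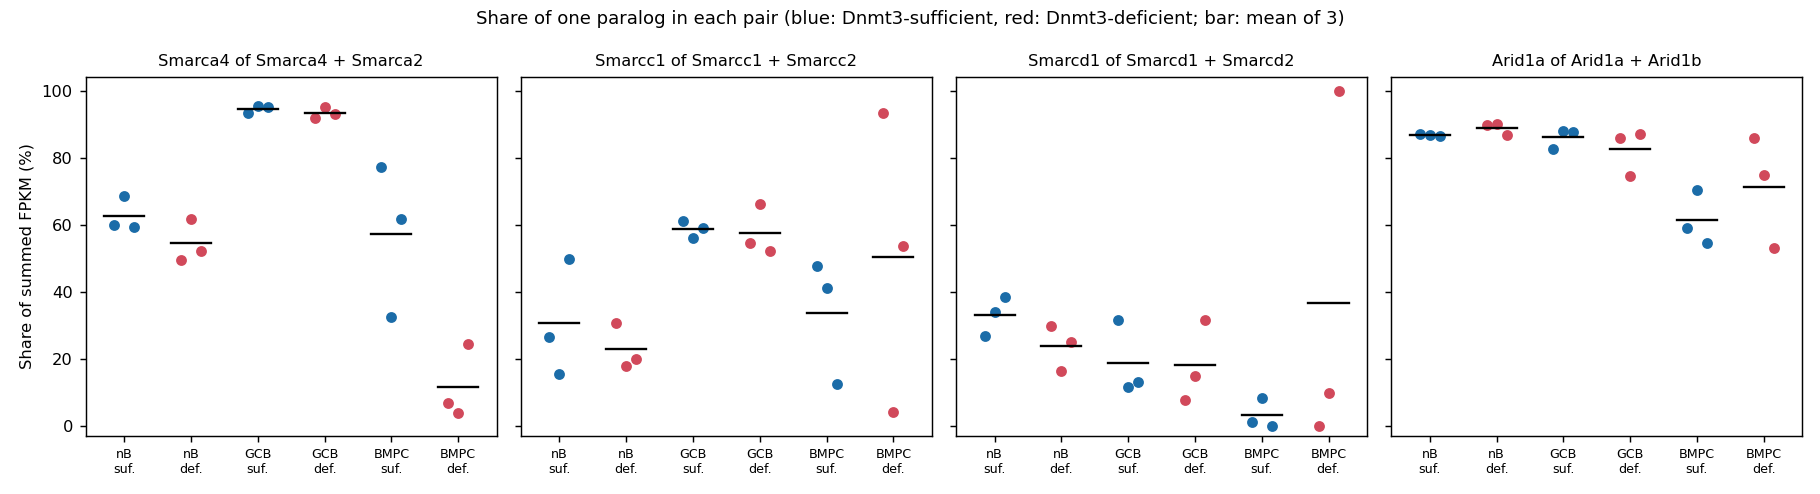
Share of the first-named paralog in the summed FPKM of each pair, in percent (vertical axis), for the 18 libraries (blue, Dnmt3-sufficient; red, Dnmt3-deficient; bars, mean of 3). The Smarca4 and Smarcc1 shares of GCB lie above those of all nB libraries, and the Smarcd1 point at 100% in BMPC rests on 5 reads.

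Between the genotypes, no member passed in nB or in GCB, where 0.0868% and 0.0174% of all tested genes did (10 and 2 genes). The comparison asks whether the loss of Dnmt3a and Dnmt3b alters the subunits before plasma cell differentiation. Differences in nB ran from -0.56 for Smarca4 to 0.31 for Smarce1, with adjusted p of 0.94 to 1. In nB all 3 Dnmt3-deficient libraries were below all Dnmt3-sufficient ones for Smarca4, at 0.659 of the mean, and above them for Smarce1. These 2 of 10 members compare with 8.84% of all genes whose genotypes did not overlap in nB. The unadjusted limma p of Smarca4 in nB was 0.059. The summed erythroid genes also separated the genotypes in nB and in GCB, higher without Dnmt3, and their part in the genotype comparisons was not tested. In GCB the difference of Smarca4 was 0.08 ± 0.21 (adjusted p = 1), and differences of the members ran from -0.34 to 0.31. The genotypes did not overlap in GCB for Smarcb1, lower in Dnmt3-deficient GCB, and Smarcc2, higher there, against 10.6% of all genes. The change from nB to GCB differed between genotypes for no member (adjusted p of 0.95 to 1), where 0.026% of all genes passed. At an unadjusted limma p under 0.05 there were 623 of 11522 genes in nB and 729 in GCB. With no difference at all, a fraction of 0.05 of the tested genes is expected under this threshold.

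In bone marrow plasma cells the values of the members were lower on average and far more scattered. Of all tested genes the median moved by -0.70 from nB to BMPC in Dnmt3-sufficient and by -0.84 in Dnmt3-deficient mice, and from GCB to BMPC by -0.56 and -0.73, so changes are also given relative to that median. The members' medians in these comparisons were -0.81, -1.49, -0.73 and -1.30, over the 9 members without Smarca4. Of the 9 members tested, none passed as higher in any of these 4 comparisons, where 7.94%, 5.21%, 5.22% and 4.99% of all genes did, in the same order. From nB, 2 of 9 passed as lower in Dnmt3-sufficient and 3 of 9 in Dnmt3-deficient mice, where 19.2% and 21.6% of all genes did. From GCB, none of 9 passed as lower in Dnmt3-sufficient and 2 of 9 in Dnmt3-deficient mice, where 15.8% and 19.9% of all genes did. These counts are near the shares of all genes. Both sets of comparisons use the same BMPC libraries.

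Arid1a passed as lower than in nB in both genotypes. It was at 12.5, 11.6 and 13.7 FPKM in Dnmt3-sufficient BMPC and at 23.6, 19.5 and 9.07 in Dnmt3-deficient BMPC, all below every nB library. It fell by 1.95 (SE 0.44, adjusted p = 0.0029) and by 1.48 (SE 0.44, adjusted p = 0.018), which is -1.25 and -0.64 relative to the median gene. The fall in Dnmt3-deficient mice did not pass without replicate 3 of that BMPC group (-1.09, adjusted p = 0.13), nor under median of ratios scaling (-1.22, adjusted p = 0.055). Arid1b was at 8.71, 4.88 and 11.5 FPKM and at 3.95, 6.55 and 8.05 in the same libraries, against 5.13 to 9.40 in nB. The Arid1a share was lower in BMPC, at 66.2% ± 12.9 (SD, n = 6), with all 6 BMPC libraries below all 6 nB libraries (exact permutation p = 0.0022, adjusted 0.0072). Against GCB the difference of -18.1 points had an exact permutation p of 0.013, adjusted 0.032, and lost the call in 7 of 12 tests that left out a library (any of the 3 from Dnmt3-sufficient BMPC, and 4 of the 6 from GCB).

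Smarcd1 was barely detected in BMPC, at 0.144, 3.09 and 0 FPKM in Dnmt3-sufficient libraries, which are 1, 37 and 0 reads. It was at 0, 1.87 and 0.70 FPKM in Dnmt3-deficient libraries, which are 0, 8 and 5 reads. A count of 0 allows up to 3 reads, or 0.262 FPKM in Dnmt3-sufficient replicate 3 and 0.583 in Dnmt3-deficient replicate 1. It fell by 2.38 from nB in Dnmt3-sufficient mice (SE 0.76, adjusted p = 0.025, -1.67 relative to the median gene), and its change of -2.04 ± 0.76 in Dnmt3-deficient mice did not pass (adjusted p = 0.052). The call was lost without Dnmt3-sufficient BMPC replicate 1 or 3 (adjusted p = 0.14 and 0.15). Its paralog Smarcd2 was at 14.3, 33.9 and 6.82 FPKM and at 16.6, 17.2 and 0 in these libraries, and its changes from nB did not pass (adjusted p = 0.99 and 0.21).

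Smarcb1 and Smarce1 passed as lower in Dnmt3-deficient BMPC, and both calls rested on replicate 2, the library with the fewest reads on genes. Smarcb1 was at 128, 0.445 and 106 FPKM there, the middle value a single read, and at 48.4, 163 and 128 in Dnmt3-sufficient BMPC. Smarce1 was at 59.1, 4.56 and 55.8 FPKM, and at 69.1, 40.5 and 42.8 in Dnmt3-sufficient BMPC. Replicate 2 stands far below its group for both genes, and the other 2 libraries lie within the range of Dnmt3-sufficient BMPC. From GCB, Smarcb1 fell by 2.68 (SE 0.82, adjusted p = 0.021) and was at -0.57 without replicate 2 (adjusted p = 0.40). Smarce1 fell by 1.71 from GCB (SE 0.51, adjusted p = 0.019), and without replicate 2 its change was -0.58 (adjusted p = 0.33). From nB, Smarce1 fell by 1.49 (adjusted p = 0.044) and was at -0.36 without that library (adjusted p = 0.57). That call was also lost under median of ratios scaling (adjusted p = 0.10) and without weights (adjusted p = 0.063).

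Smarcc2 fell by 2.02 from nB in Dnmt3-deficient mice (SE 0.60, adjusted p = 0.017, -1.19 relative to the median gene). It was at 0.576, 8.03 and 3.97 FPKM in those BMPC libraries and at 5.99, 6.71 and 11.8 in Dnmt3-sufficient BMPC, where its change of -1.07 ± 0.60 did not pass (adjusted p = 0.19). Here replicate 1 was the lowest, and without it the change was -1.33 (adjusted p = 0.17). Smarcc1 was at 5.47, 4.70 and 1.66 and at 8.18, 0.332 and 4.57 FPKM, and its share of the Smarcc pair ranged from 3.98% to 93.4% over the 6 BMPC libraries. That share did not differ past the threshold from nB (15.4 points, exact permutation p = 0.31, adjusted 0.39) or GCB (-16.0 points, exact permutation p = 0.26, adjusted 0.38). Smarca2 was at 1.5, 15 and 5.54 FPKM in Dnmt3-sufficient BMPC and at 5.24, 5.87 and 5.50 in Dnmt3-deficient BMPC. Its changes from nB, -0.85 ± 0.61 and -0.73 ± 0.61, did not pass (adjusted p = 0.32 and 0.40).

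Smarca4 itself was the member for which the genotypes differed most in BMPC, as the choice of the gene implies. It was at 5.06, 7.23 and 8.89 FPKM in Dnmt3-sufficient BMPC, from 72, 178 and 209 reads. In Dnmt3-deficient BMPC it was at 0.378, 0.228 and 1.77 FPKM, from 4, 2 and 26 reads. The 3 Dnmt3-deficient libraries lay below the 3 others. The means were 7.06 ± 1.92 and 0.793 ± 0.851 (SD, n = 3), and the difference was -2.24 ± 0.62 (SE) on the log2(FPKM + 1) scale, or -2.02 without Dnmt3-deficient replicate 2. Pooled over libraries, 459 reads fell on the gene in Dnmt3-sufficient and 32 in Dnmt3-deficient BMPC, a ratio of 0.128 at equal depth. Relative to nB of the same genotype the log2 differences of the 2 genotypes were -1.25 ± 0.48 and -2.93 ± 0.48, Dnmt3-sufficient first, and relative to GCB they were -2.57 ± 0.46 and -4.88 ± 0.46. The order of its levels was thus GCB, nB, BMPC in both genotypes, with no overlap between neighbors. The Smarca4 share of the ATPase pair was 77.1%, 32.5% and 61.6% in Dnmt3-sufficient BMPC and 6.73%, 3.74% and 24.4% in Dnmt3-deficient BMPC.

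For the other 9 members the ranges of the genotypes overlapped in BMPC with all 6 libraries. With Smarca4, 1 of 10 members did not overlap, where 10.3% of all genes did not. Smarcb1 (-1.91 ± 1.09) and Smarce1 (-0.92 ± 0.68) came to 0.21 each without Dnmt3-deficient replicate 2, and Smarcc1 went from -0.17 to 0.63. Smarcd2 was at -1.23 ± 1.18, with 0 reads in Dnmt3-deficient replicate 3, which allows up to 0.461 FPKM, and at -1.94 without replicate 2. Smarcc2 was at -1.10 ± 0.77, and at -1.66 without replicate 2, where its ranges did not overlap. With all libraries Smarca2, Smarcc1, Smarcd1, Arid1a and Arid1b lay between -0.36 and 0.34. The low libraries were not the same for each gene: replicate 1 for Smarcc2, replicate 2 for Smarcb1, Smarcc1 and Smarce1, and replicate 3 for Smarcd2.

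**Figure D4:**
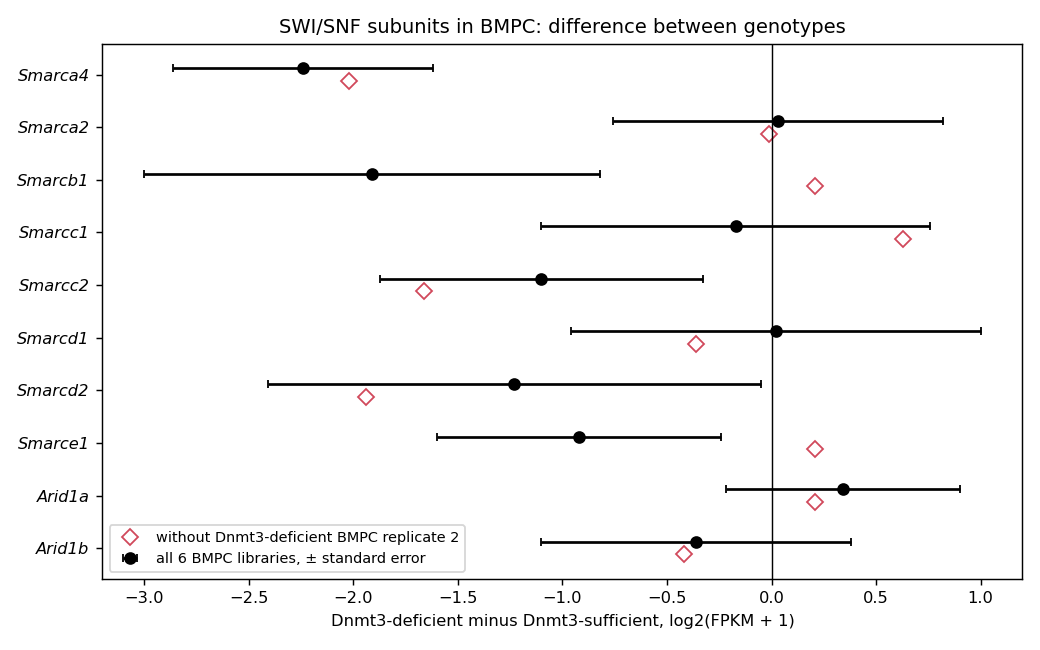
Difference between genotypes in BMPC for each subunit (horizontal axis, Dnmt3-deficient minus Dnmt3-sufficient, log2(FPKM + 1)), with all 6 libraries and its standard error (black) and without Dnmt3-deficient replicate 2 (open diamonds). Smarca4 is near -2 either way, and Smarcb1 and Smarce1 move from below 0 to 0.21.

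Some other properties of the BMPC libraries moved with the genotype, and others overlapped between the genotypes. The 7 plasma cell markers summed to 18900 to 29500 FPKM with Dnmt3 and to 34000 to 51500 without, most of which was Jchain at 16200 to 25600 and 29800 to 46600. Irf4, in the same list, ran the other way, at 37.3, 55.2 and 44.1 FPKM with Dnmt3 and at 14.5, 0.315 and 27.9 without. The 8 cell cycle genes, which moved with the change from nB to GCB, summed to 770 to 1020 FPKM with Dnmt3 and to 496 to 755 without. Singly, 6 of them were lower and 2 higher without Dnmt3, with log2 differences of -1.37 to 1.29. Only 1 of the 8 did not overlap between genotypes, where 10.3% of all genes did not. The 5 erythroid genes in the table, of 8 listed, summed to 1470 to 2890 and to 182 to 1160, and none of these sums overlapped between genotypes. The 5 macrophage markers summed to 40.5 to 87.7 and 103 to 168 FPKM, and of these Cd68 alone separated the genotypes, at 44.7, 87.6 and 40.5 with Dnmt3 and at 98.4, 158 and 145 without. C1qa was at 0 in all 6 libraries, and Csf1r, Adgre1 and Mrc1 were each above 0 in 1 Dnmt3-deficient library, with 9.51, 13.2 and 4.84 FPKM, and at 0 or 0.0477 in the Dnmt3-sufficient ones. Neutrophil genes (7 listed) summed to 63.4 to 526 FPKM with Dnmt3 (median 141) and to 9.37 to 582 without (median 535). Elane, Camp and Ltf were at 0 in the Dnmt3-deficient libraries, but Camp and Ltf were also at 0 in Dnmt3-sufficient replicates 2 and 3. S100a8, S100a9, Mpo and Ngp were above 0 in libraries of both genotypes. Early B cell genes (5 listed) summed to 341 to 627 and 308 to 574, and T cell genes (5 listed) to 30.9 to 65.9 and 57.4 to 98.5. Most of the early B cell sum was Dntt, at 329, 330 and 581 FPKM with Dnmt3 and at 315, 450 and 305 without. Vpreb1, Igll1, Rag1 and Rag2 lay between 0 and 55.7 FPKM in BMPC. Dnmt3-sufficient BMPC had 2196198 to 3803197 reads on genes and Dnmt3-deficient BMPC 1355231 to 2265945. The part of these in the values of Smarca4 was not tested. Rescaling without Igll1 and Jchain, an abundant plasma cell transcript, left its difference at -2.25, and median of ratios scaling at -2.19. Jchain held 3.4% to 9.8% of the reads on genes of BMPC libraries, so its removal could move a difference only little. Neither scaling bears on the mix of cells.

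Of 19 SWI/SNF subunits outside the 10 members that were listed, 16 passed the filter, and from nB to GCB none passed as higher and 1 as lower in each genotype, beside the 12.1% and 16.6% of all genes in Dnmt3-sufficient and 10.7% and 14.7% in Dnmt3-deficient mice. That gene was Gltscr1l, a subunit of the noncanonical BAF form, at 12.1 and 3.57 FPKM in Dnmt3-sufficient and 8.29 and 2.47 in Dnmt3-deficient nB and GCB. It is named as the single call of its list, after its values were seen. The median change of the 16 was 0.02 and 0.00. From nB to BMPC 4 and 6 of 16 passed as lower and none as higher, beside 19.2% and 21.6% of all genes lower. From GCB to BMPC 5 and 4 of 16 passed as lower and none as higher, beside 15.8% and 19.9% of all genes lower. No subunit outside the members passed between genotypes in nB or GCB.

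Named remodelers of other families also changed from nB to GCB, where 12.1% of all genes passed as higher and 16.6% as lower in Dnmt3-sufficient mice, and 10.7% and 14.7% in Dnmt3-deficient mice. Of 10 ISWI genes tested, 2 passed as higher and none as lower in each genotype. Of 19 CHD and NuRD genes, 3 passed as higher in each genotype and 5 and 4 as lower. Of 17 genes of INO80, SRCAP and Ep400, 2 passed as higher in each genotype and 1 and 0 as lower. With lists of this size, these counts set no list apart from all genes. The largest changes were those of Chd2, a chromatin remodeling ATPase, at -2.73 ± 0.36 in Dnmt3-sufficient and -3.03 ± 0.36 in Dnmt3-deficient mice (adjusted p = 9.4e-06 and 3.1e-06). Chd3, an ATPase of NuRD, changed by -1.99 and -2.48 (adjusted p = 8.7e-05 and 8.4e-06), and Chd7 by -1.63 and -1.94 (adjusted p = 0.00019 and 3.3e-05). Mbd2, the NuRD subunit that binds methylated CG, rose by 1.95 and 2.53 (adjusted p = 1.8e-05 and 9.5e-07). Rbbp7, a histone chaperone of NuRD, rose by 1.85 and 1.47, Ruvbl2, an AAA ATPase of INO80 and SRCAP, by 2.15 and 1.58, and Cecr2 by 1.49 and 1.71. No gene of these 3 lists passed between genotypes in nB or GCB.

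The tested genes whose log2(FPKM + 1) followed that of Smarca4 most closely over the 18 libraries were Rpa1 (Pearson r of 0.968), Hadha (0.964), Ehd3 (0.964), Cfl1 (0.963) and Suv39h1 (0.957). Rpa1 encodes a subunit of the single-stranded DNA binding protein RPA, and was at 113 ± 23.7 FPKM (SD, n = 6) in nB, 303 ± 13.5 in GCB and 36.2 ± 18.2 in BMPC. Suv39h1, a histone H3 lysine methyltransferase, was at 21.3 ± 6.14, 70.8 ± 9.95 and 6.04 ± 5.28 FPKM. These are descriptions over libraries that share 6 groups and differ in depth between cell types. By Spearman rank over the same libraries 2 of the 5 genes were among the nearest 5, and over the 12 nB and GCB libraries none. The other members had an r with Smarca4 of -0.294 (Arid1b) to 0.705 (Smarcc1).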

How the data were processed

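Per the labels and the study's methods, RNA of 5000 sorted cells per sample was amplified with SMARTer and Nextera kits, which use no molecular identifiers. Reads were mapped by the authors to mm9 with TopHat, and reads with a single hit were counted over UCSC KnownGene exons with summarizeOverlaps. The strand setting of the counting is not given in the sources used here. The submitters' notes also name Picard, R 3.2.2 and edgeR 3.12.1. The authors deposited FPKM for 21761 genes (92 without a symbol) in 18 libraries, scaled to the reads on genes. The same table holds their fold changes and FDR values for comparisons of the groups, which were not used. Whole reads were recovered from all values to within 0.01 read and gave the depths, as reads on genes, and the read numbers.

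From the FPKM, log2(FPKM + 1) was tested with limma 3.58.1 (R 4.3.3) over 11522 genes above 1 FPKM in at least 2 libraries. All 6 groups entered 1 fit, with a weight for each cell type (arrayWeights: 1.41 for nB, 2.51 for GCB and 0.283 for BMPC), since a common spread over all libraries understates that of BMPC. A gene passed at a Benjamini-Hochberg adjusted p of 0.05 and a change of 1. Paralog shares were tested with exact permutation tests over libraries (scipy 1.17.1), adjusted over 10 comparisons. The members and lists were chosen with earlier results of these data known. All members were described. Of the other remodeler lists the 5 largest changes past the threshold in each genotype from nB to GCB were named, and the 5 genes nearest to Smarca4 by Pearson r. Groups followed the labels, with replicates numbered by them for GCB and in sample order for nB and BMPC. The labels do not say which nB and BMPC samples are littermates, and p-values measure the spread between these samples. Limits from 0 reads cover counting error only. The fit was also run on simulated counts, drawn independently for each gene, and that run is not used as support for the calls. Alternatives were another pseudocount, no or a stricter filter, median of ratios scaling, and rescaling without Jchain and Igll1. Further ones were no weights or a weight for each library, sex as a covariate, voom on the recovered reads, and other thresholds. The rest were fits of the compared groups alone, a replicate block in GCB, and leaving out each library. Dnmt3a and Dnmt3b were listed for their level only. The driver of the Cre allele and the level of some marker genes are not reported here.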

Additional observations from a re-analysis of the deposited data

How the results depend on the processing

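Smarca4 passed as higher in GCB than in nB under every alternative run, at 1.25 to 1.38 in Dnmt3-sufficient and 1.92 to 2.05 in Dnmt3-deficient mice, and at 1.19 to 1.4 and 1.83 to 2.04 when any library was left out. Without weights the number of genes that passed from nB to GCB went from 3304 to 1631 and from 2925 to 1489 in the 2 genotypes, 1 member in place of 3 passed in Dnmt3-deficient mice, 1 member passed from GCB to BMPC in Dnmt3-sufficient mice, and 6, 0 and 459 genes differed between genotypes in nB, GCB and BMPC, where 10, 2 and 17 had, with 0 in place of 3 for the interaction. At an adjusted p of 0.01 the genes called were 1724 and 1632 in place of 3123 and 3086 from nB to BMPC, 1355 and 1722 in place of 2424 and 2871 from GCB to BMPC, and 5, 1, 5 and 0 for the genotypes in nB, GCB, BMPC and the interaction, with 1 and 0 members from nB and 0 from GCB in Dnmt3-deficient mice. With voom on the recovered reads, 1853 genes and 0 members passed from nB to BMPC in Dnmt3-deficient mice, 1670 and 0 from GCB, and 4 and 5 genes between genotypes in GCB and BMPC. Fits of the compared groups alone gave 1 and 1 members from nB to BMPC, 0 from GCB in Dnmt3-deficient mice, and 0 genes between genotypes in each cell type. Median of ratios scaling left 1 member from nB and 1 from GCB to BMPC in Dnmt3-deficient mice. With no minimum change 5 members passed from nB to GCB in Dnmt3-sufficient mice.

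Between genotypes in nB, GCB and BMPC, 29, 8 and 29 genes passed with a pseudocount of 0.1, and 20, 5 and 45 with no filter (10 for the interaction). The stricter filter gave 5 in nB, 11 in BMPC and 1 for the interaction, a weight per library gave 1 for the interaction, and sex as a covariate gave 5 in GCB. The descriptive differences of Smarca4 in Dnmt3-deficient BMPC were larger with a pseudocount of 0.1 and with voom: -4.15 and -4.24 from nB, -6.19 and -6.29 from GCB, and -3.39 and -3.52 between genotypes. The cause of these shifts was not tested.

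Leaving out each library gave 2053 to 3186 and 2022 to 3130 genes from nB to BMPC, 1527 to 2531 from GCB to BMPC in Dnmt3-sufficient mice, 7 to 20, 2 to 14 and 10 to 47 between genotypes in nB, GCB and BMPC, and 1 to 7 for the interaction. The lowest count from nB in Dnmt3-sufficient mice, 2053, was without BMPC Dnmt3-sufficient replicate 1, and that in Dnmt3-deficient mice, 2022, without BMPC Dnmt3-deficient replicate 2. From GCB in Dnmt3-sufficient mice 1548 and 1527 genes passed without BMPC Dnmt3-sufficient replicate 1 and 2, and the 47 genes between genotypes in BMPC came without Dnmt3-deficient replicate 1. Members called were 1 to 2 from nB and 0 to 1 from GCB in Dnmt3-sufficient mice, and 1 to 3 from GCB in Dnmt3-deficient mice. Smarcd2 ranged from -0.07 to 0.70 and from -0.53 to 0.09 from nB to GCB, turning sign without Dnmt3-sufficient nB replicate 3 and Dnmt3-deficient GCB replicate 3. The genotype difference of Smarca4 in GCB ranged from -0.01 to 0.15, negative without Dnmt3-deficient replicate 2. Smarce1 from nB to BMPC in Dnmt3-deficient mice lost its call in 13 of 18 such fits (-2.07 to -0.36).

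Of the shares, that of Smarcd1 turned sign: from nB to BMPC it was 12.9 points higher in Dnmt3-deficient libraries alone, and from GCB to BMPC it was -2.44 with 1 FPKM added to each gene and -15.5 in Dnmt3-sufficient libraries alone. Leaving out a library gave -24.6 to -4.57 and -14.5 to 5.51, both lowest without Dnmt3-deficient BMPC replicate 3, where they passed. The Smarcc1 share from GCB to BMPC ranged from -26.3 to -8.44 and passed without Dnmt3-deficient BMPC replicate 1 (adjusted exact permutation p = 0.017). The Arid1a share from nB to GCB was -4.34 with 1 FPKM added and then passed (adjusted exact permutation p = 0.035), and from GCB to BMPC it ranged from -22.0 to -15.4, with an adjusted exact permutation p of up to 0.065 and the call lost without any one Dnmt3-sufficient BMPC library and 4 of the 6 GCB libraries.

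The GCB labels share numbers between genotypes, but nothing says what the numbers stand for, so the pairing was not used. Same-numbered samples had correlations of 0.0257, -8.06e-05 and -0.0171 in their deviations, and samples of different numbers had -0.06 to 0.0632. With 3 libraries per group these values cannot settle whether samples were paired. With the replicate block 0 genes and 0 members passed between genotypes in GCB by limma, against 2 and 0 without it. At 1355231 to 3803197 reads on genes, BMPC libraries hold 1 read or none of some members, and changes in BMPC were less precise than those in nB and GCB.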
